A study of Mus musculus with 9 samples.

Results

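The genes studied here mark the entry of a blood progenitor into the T cell lineage, and were taken by the gene symbols Gata3, Tcf7, Bcl11b, Lef1, Il2ra, Ptcra, Cd3g, Cd7, Cd28 and Thy1, with every probe set that the array annotation gives to each symbol. Of these 10 listed genes 9 were measured, by 15 of the 45101 probe sets on the array, among 18193 genes in all. Tcf7 was not analysed here. On OP9-DL1, 7 of the 9 genes were higher than on OP9-GFP, Cd28 was lower and Ptcra did not pass the test. With Compound E each of those 8 genes was called in the opposite direction, and Cd7 ended below its OP9-GFP level. Calls were common: over all genes, 15.9% were higher and 16.7% lower on OP9-DL1, and 25.1% were higher and 21.6% lower with Compound E. Gata3, Il2ra, Cd3g and Thy1 rose from OP9-GFP means within the range of the array's bacterial controls.

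The cells were bone marrow progenitors of wild-type C57/Bl6 mice, sorted for Sca-1 and c-Kit among cells without lineage markers (LSK), a gate that holds the blood stem cells. They were grown for 3 days in 3 groups of 3 samples each: on OP9-GFP, the control line of mouse bone marrow stromal feeder cells; on OP9-DL1, feeders that display the Notch ligand Delta-like 1; and on OP9-DL1 with 1 µM Compound E. The latter inhibits gamma-secretase, the protease that releases the active part of a Notch receptor, so the third group had the ligand together with an inhibitor of that step. Non-adherent cells were harvested, and their total RNA was amplified, biotin-labelled and measured on 1 array per sample. The labels do not say whether samples of a group came from separate mice or cultures, so the p-values rest on a spread among these samples that may be only technical.

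Notch signalling in a progenitor that reaches the thymus switches on Gata3 and Tcf7, and these transcription factors, later joined by Bcl11b, commit the cell to the T lineage and close off its other fates. Il2ra (CD25) and Thy1 appear at the surface during the same double-negative stages, and the receptor genes follow: Ptcra encodes the pre-T cell receptor alpha chain and Cd3g a signalling subunit of the receptor complex. Several of these genes are not exclusive to T cells, since Gata3, Il2ra and Thy1 are also used by innate lymphoid cells and Gata3 and Il2ra by mast cell precursors. In a bulk measurement like this one, fewer cells of a type and less RNA per cell cannot be told apart.

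Kit, which encodes the c-Kit used in the sort, averaged a log2 level of 8.94 ± 0.15 (SD, n = 3) in the OP9-GFP group, 10.22 ± 0.16 in the OP9-DL1 group and 8.14 ± 0.11 under Compound E, and Sca-1 was not analysed here. The pan-leukocyte gene Ptprc (CD45) had group means from 11.38 to 11.59. Array medians ran from 4.78 to 4.94. The table carries no detection calls, so the level of 27 unspiked bacterial control probe sets served as background: over the 9 arrays they ran from 2.24 to 3.64, and a group mean up to 3.64 is called at background. By that measure 13449 of the 18193 genes (73.9%) were above background in at least 1 group.

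The stretches of DNA before the starts of 3 of the genes are shown as examples of windows with and without TGGGAA, the core letters bound by RBPJ, the DNA-binding partner of Notch. Among the 6 measured members with a RefSeq window, 3 carried a match: Ptcra, which stayed at background, and Cd3g and Lef1, which rose. The other 3, Gata3, Bcl11b and Il2ra, rose and carried none. The stretches printed are the 250 bases before each RefSeq gene start, 5′ to 3′ on the strand of the gene, from RefSeq's GRCm38.p6 assembly: Ptcra at chr17:46763713-46763962 on the minus strand, Cd3g at chr9:44980432-44980681 on the minus strand and Il2ra at chr2:11642542-11642791 on the plus strand. Capitals mark TGGGAA and, in Cd3g, also AGATAA, letters bound by GATA factors.
Ptcra: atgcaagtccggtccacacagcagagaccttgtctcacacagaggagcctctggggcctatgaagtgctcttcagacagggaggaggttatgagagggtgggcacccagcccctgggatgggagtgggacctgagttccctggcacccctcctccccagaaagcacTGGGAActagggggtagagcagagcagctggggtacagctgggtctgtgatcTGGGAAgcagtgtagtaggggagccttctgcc
Cd3g: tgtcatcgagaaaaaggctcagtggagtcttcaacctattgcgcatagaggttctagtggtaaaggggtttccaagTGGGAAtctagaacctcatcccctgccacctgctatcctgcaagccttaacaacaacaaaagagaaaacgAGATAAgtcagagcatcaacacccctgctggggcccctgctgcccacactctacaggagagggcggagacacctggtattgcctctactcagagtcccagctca
Il2ra: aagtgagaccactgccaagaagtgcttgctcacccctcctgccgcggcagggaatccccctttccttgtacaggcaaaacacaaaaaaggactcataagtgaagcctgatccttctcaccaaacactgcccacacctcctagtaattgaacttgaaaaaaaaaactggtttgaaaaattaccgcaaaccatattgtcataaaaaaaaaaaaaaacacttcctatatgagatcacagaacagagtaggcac
The Ptcra matches begin 84 and 32 bases before the start, and those of Cd3g 174 bases (TGGGAA) and 104 bases (AGATAA) before it. Searching both strands of the 300-base windows (250 before and 50 after the start) of all 32851 RefSeq starts, TGGGAA was found in 25.6% of windows, to be read beside the 3 of 6 members, of which Lef1 has 4 windows and its matches lie 13 to 44 bases after the starts. AGATAA was found in 11.2% of windows and GTGGGAA, which overlaps TGGGAA and occurs in Cd3g and Lef1, in 6.4%. CTTTGA, letters of TCF and LEF factors, was found in 5257 windows and among the members in those of Bcl11b, 89 bases before the start, and of Lef1. TGTGGT, letters of RUNX factors, was found in 16.8% of windows and in no member's. A match is a description of these letters, not a bound site.

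The levels below are log2 values as deposited, given for replicates 1, 2 and 3 of each group, and a difference of 1 is a 2-fold change. Differences carry the standard error (SE) and the Benjamini-Hochberg adjusted p of limma's moderated test over all 18193 genes, with a threshold of 0.05. The comparison of OP9-DL1 with OP9-GFP asks what the Notch ligand does to these genes. That of OP9-DL1 with and without Compound E asks what adding the compound does. That of the Compound E group with OP9-GFP asks how closely the inhibited cultures resemble the control state. No group had Compound E on OP9-GFP, so blocked Notch cleavage and any other effect of the compound cannot be told apart. The first and second comparisons share the OP9-DL1 arrays, so their values are set side by side without being counted as separate evidence.

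**Figure D1:**
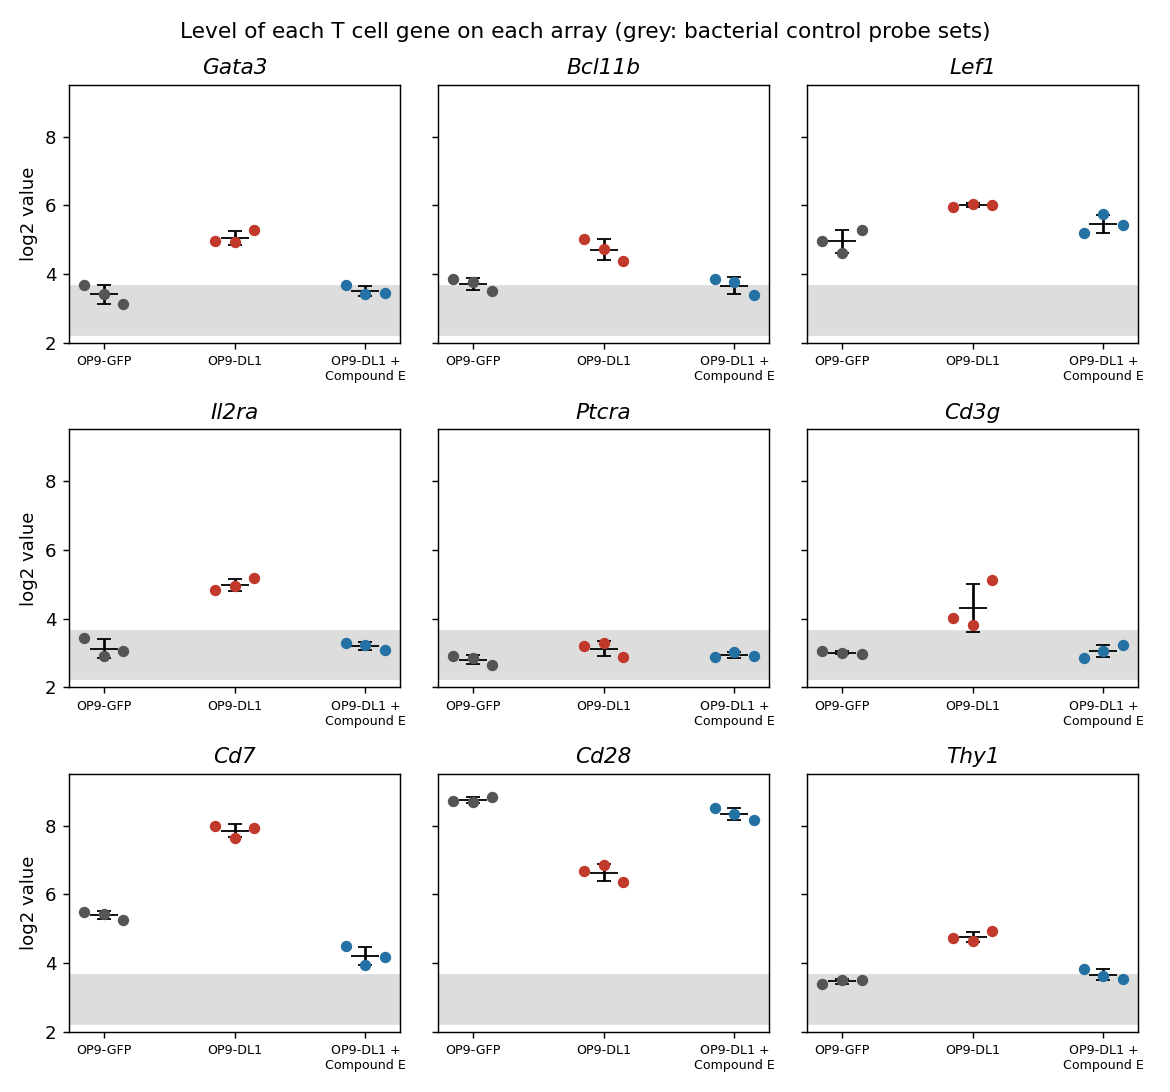
Log2 level of each of the 9 measured T cell genes on each array (points; 3 arrays per group), with the group mean and SD (black) and the range of the bacterial controls from 2.24 to 3.64 in grey. Gata3, Bcl11b, Lef1, Il2ra, Cd3g, Cd7 and Thy1 were highest on OP9-DL1, Cd28 was lowest there, and all Ptcra points lie in the grey band.

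Against OP9-GFP, the OP9-DL1 group had 7 of the 9 genes higher and 1 lower. Over all genes tested, 32.6% were called in this comparison, 15.9% higher and 16.7% lower. The median difference over the 9 genes was 1.29, against -0.02 over all genes. The groups did not overlap for 8 of the 9, against 43.8% of all genes. With Compound E added, 7 of the 9 were lower than on OP9-DL1 and 1 was higher, where 46.7% of all genes were called, 21.6% lower and 25.1% higher. The median difference was -1.10, against 0.08 over all genes, and again 8 of the 9 did not overlap, against 52.6% of all genes. A change of at least 2-fold was reached on OP9-DL1 by 6 genes upwards and 1 downwards (4.11% and 2.76% of all genes) and with Compound E by 6 downwards and 1 upwards (4.95% and 4.47%). Adding 32 to the values on the linear scale, which damps dim readings, lowered the OP9-DL1 differences of Gata3, Bcl11b, Lef1, Il2ra, Cd3g and Thy1 to between 0.37 and 0.64 on the log2 scale, and all 6 were still called. With Compound E the same step gave -2.38 for Cd7, -0.63 for Il2ra, -0.59 for Gata3, -0.41 for Thy1, -0.39 for Cd3g, -0.38 for Bcl11b and -0.34 for Lef1, each still called.

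Among the transcription factors, Gata3, the zinc-finger factor needed for the earliest T cell stages, read 3.67, 3.42 and 3.14 on OP9-GFP, 4.95, 4.93 and 5.28 on OP9-DL1, and 3.67, 3.41 and 3.45 with Compound E. All 3 OP9-DL1 arrays stood apart above the other 6, and 2 of those 6 were above the background of 3.64. Gata3 rose by 1.64 ± 0.15 (SE; 3.12-fold, adjusted p = 2.44e-07 by limma) on OP9-DL1 and fell by 1.54 ± 0.15 (2.91-fold, adjusted p = 3.63e-07 by limma) with Compound E. Its rise ranked 272 among the 18193 genes. Both other groups averaged below 3.64, though Gata3 was above the highest control of the same array on 7 of the 9 arrays. These folds are therefore set against a level at or close to that of the controls.

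Bcl11b, the zinc-finger factor that completes commitment, read 3.85, 3.76 and 3.50 on OP9-GFP, 5.01, 4.72 and 4.39 on OP9-DL1, and 3.85, 3.76 and 3.38 with Compound E. These values are from the 1 of its 4 probe sets with the highest mean over the 9 arrays. The lowest OP9-DL1 array lay above every array of the other groups. By that probe set Bcl11b rose by 1.00 ± 0.17 (SE, adjusted p = 0.000188 by limma) and fell by 1.04 ± 0.17 (2.06-fold, adjusted p = 8.57e-05 by limma) with Compound E. The other 3 probe sets had group means between 3.20 and 3.85 and none was called in the fit over all 9 arrays. Of these, 1 was brighter than the chosen probe set on OP9-GFP (3.85 against 3.71) and with Compound E (3.81 against 3.66). On OP9-DL1 it was dimmer (3.74 against 4.71), so the choice of probe set rested on the OP9-DL1 arrays, where Bcl11b was then called higher. Without OP9-GFP replicate 2, another of the 3 was called on OP9-DL1 (0.42, adjusted p = 0.0276 by limma) and between Compound E and OP9-GFP (0.40, adjusted p = 0.0471 by limma). Averaged over the 4 probe sets the rise was 0.30 (adjusted p = 0.0295 by limma) and the Compound E difference of -0.22 was no longer called (adjusted p = 0.0825 by limma). These averages include the called probe set, while the other 3 differed by 0.26, -0.12 and 0.05 on OP9-DL1. In the fit over all 9 arrays Bcl11b's calls in both comparisons therefore rest on 1 probe set.

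Lef1, the partner of Tcf7 in the family of HMG-box factors that read Wnt signals, was already above background on every array by its brighter probe set: 4.95, 4.62 and 5.29 on OP9-GFP, 5.94, 6.05 and 6.02 on OP9-DL1, and 5.21, 5.74 and 5.41 with Compound E. OP9-DL1 was highest without overlap, and the Compound E arrays lay between, overlapping OP9-GFP. Lef1 rose by 1.05 ± 0.17 (SE; 2.06-fold, adjusted p = 0.000125 by limma) on OP9-DL1. It fell by 0.55 ± 0.17 (1.46-fold, adjusted p = 0.0149 by limma) with Compound E, the smallest fall among the called members. That call was lost without OP9-DL1 replicate 2 (-0.53, adjusted p = 0.0504 by limma) and without Compound E replicate 1 (-0.43, adjusted p = 0.0749 by limma). Its dimmer probe set stayed at group means of 2.70 to 2.75, inside the range of the controls, and averaged over both probe sets the differences were 0.55 (adjusted p = 0.00110 by limma) and -0.28 (adjusted p = 0.0408 by limma). The brighter probe set carried these averages, so they are no separate evidence.

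Of the surface molecules of early thymocytes, Il2ra, the interleukin-2 receptor alpha chain, read 3.42, 2.90 and 3.05 on OP9-GFP, 4.83, 4.95 and 5.17 on OP9-DL1, and 3.30, 3.22 and 3.08 with Compound E. The 3 OP9-DL1 arrays were above background, and the other 6 were not. Il2ra rose by 1.86 ± 0.15 (SE; 3.62-fold, adjusted p = 2.92e-08 by limma) and fell by 1.78 ± 0.15 (3.43-fold, adjusted p = 3.44e-08 by limma) with Compound E. Its other probe set had group means of 2.63 to 2.75, at background, and was not called in any comparison. Averaged over both probe sets the rise was 0.98 (adjusted p = 1.10e-05 by limma) and the Compound E difference was -0.88 (adjusted p = 1.97e-05 by limma). The called probe set carried these averages, so they are no separate evidence.

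Thy1, a glycolipid-anchored surface protein of T cells and of other cells, among them some innate lymphoid cells, read 3.38, 3.52 and 3.51 on OP9-GFP, 4.73, 4.63 and 4.93 on OP9-DL1, and 3.83, 3.61 and 3.54 with Compound E. Only the OP9-DL1 arrays and Compound E replicate 1 were above background. Thy1 rose by 1.29 ± 0.13 (SE; 2.45-fold, adjusted p = 5.59e-07 by limma) and fell by 1.10 ± 0.13 (2.14-fold, adjusted p = 2.44e-06 by limma) with Compound E.

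Cd7, an immunoglobulin-family surface protein found early on T and natural killer precursors, showed the widest range of the 9 genes. It read 5.48, 5.43 and 5.25 on OP9-GFP, 7.98, 7.63 and 7.93 on OP9-DL1, and 4.49, 3.94 and 4.19 with Compound E. The 3 groups did not overlap, with OP9-DL1 highest and Compound E lowest. Cd7 rose by 2.46 ± 0.15 (SE; 5.51-fold, adjusted p = 1.49e-09 by limma), rank 68 among all genes. It fell by 3.64 ± 0.15 (12.5-fold, adjusted p = 7.39e-12 by limma) with Compound E, the 24th largest fall among the 18193 genes.

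Cd28, the co-stimulatory receptor that T cells carry beside the antigen receptor, moved the other way. By its brighter probe set it read 8.71, 8.68 and 8.83 on OP9-GFP, 6.69, 6.86 and 6.36 on OP9-DL1, and 8.50, 8.33 and 8.16 with Compound E. OP9-DL1 was lowest and OP9-GFP highest, with no overlap between any of the groups. Cd28 fell by 2.11 ± 0.12 (SE; 4.31-fold, adjusted p = 4.27e-10 by limma) on OP9-DL1, rank 93 among the falls of all genes. It rose by 1.70 ± 0.12 (3.24-fold, adjusted p = 4.27e-09 by limma) with Compound E. The other Cd28 probe set moved alike, with group means of 7.48, 5.21 and 6.82 and differences of -2.26 (adjusted p = 1.58e-09) and 1.61 (adjusted p = 5.79e-08) in limma's fit over 45037 probe sets, where 24.9% and 39.1% of probe sets were called.

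The receptor genes were at background on OP9-GFP. Cd3g read 3.04, 3.00 and 2.98 there, 4.004, 3.81 and 5.11 on OP9-DL1, and 2.86, 3.06 and 3.22 with Compound E. The OP9-DL1 arrays were above background and the others were not, but replicate 3 stood more than a log2 unit above the other two. Cd3g rose by 1.30 ± 0.24 (SE; 2.46-fold, adjusted p = 0.000343 by limma) and fell by 1.26 ± 0.24 (2.39-fold, adjusted p = 0.000327 by limma) with Compound E. Without OP9-DL1 replicate 3 these differences were 0.90 (adjusted p = 8.14e-05 by limma) and -0.86 (adjusted p = 8.66e-05 by limma).

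Ptcra read 2.92, 2.86 and 2.65 on OP9-GFP, 3.20, 3.28 and 2.87 on OP9-DL1, and 2.87, 3.04 and 2.92 with Compound E. Every array was at background and the groups overlapped. The differences were 0.31 ± 0.12 (SE; adjusted p = 0.0573 by limma) and -0.18 ± 0.12 (adjusted p = 0.240 by limma), with 95% intervals of 0.06 to 0.56 and -0.43 to 0.08. Without OP9-DL1 replicate 3, the lowest OP9-DL1 array, both were called, at 0.44 (adjusted p = 0.00977 by limma) and -0.30 (adjusted p = 0.0498 by limma). Whether Ptcra RNA was present in any group is not measurable at this signal.

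**Figure D2:**
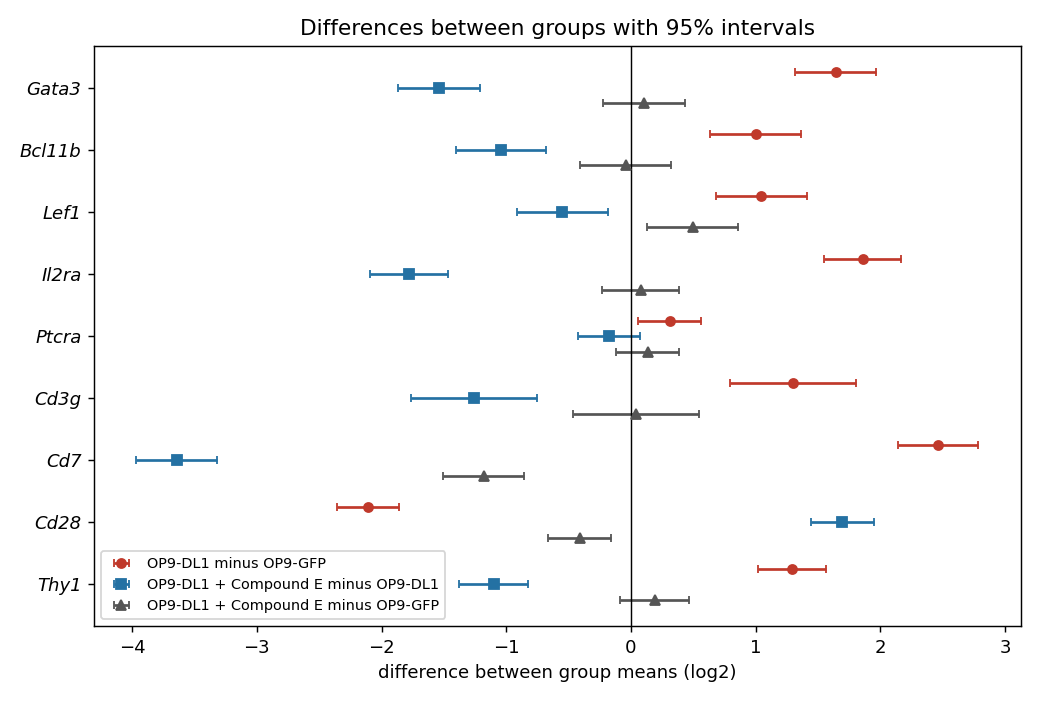
Difference between group means (log2) for each measured T cell gene, with 95% intervals, for OP9-DL1 minus OP9-GFP, Compound E minus OP9-DL1 and Compound E minus OP9-GFP. Cd7 has the largest difference (-3.64 with Compound E), Cd28 is opposite in sign to the other called genes, and 6 of the 9 differences between Compound E and OP9-GFP were not called.

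Between the Compound E group and OP9-GFP, 1 of the 9 genes was higher and 2 were lower, where 22.7% of all genes were called, 12.1% higher and 10.6% lower. Cd7 fell by 1.18 ± 0.15 (SE; 2.27-fold, adjusted p = 3.69e-05 by limma), the 77th largest fall of all genes, and by 0.55 (adjusted p = 0.00113 by limma) with 32 added to the linear values. It was the 1 member past 2-fold here, where 0.605% of all genes were higher and 0.753% lower by that much. Cd28 fell by 0.41 ± 0.12 (1.33-fold, adjusted p = 0.0185 by limma), a call lost without OP9-GFP replicate 1 (adjusted p = 0.0507 by limma), OP9-GFP replicate 3 (0.0712) or Compound E replicate 3 (0.0737), while the other Cd28 probe set gave -0.65 (adjusted p = 0.00214 by limma over probe sets, of which 19.0% were called). Lef1 was higher by 0.50 ± 0.17 (1.41-fold, adjusted p = 0.0476 by limma), with overlapping arrays, and lost the call under 13 of 17 alternatives (adjusted p from 0.0141 to 0.215), among them 7 of the 9 that left out 1 array.

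The remaining differences lay near 0: Gata3 at 0.10 (95% interval -0.22 to 0.43), Bcl11b at -0.04 (-0.41 to 0.32), Il2ra at 0.08 (-0.23 to 0.39), Cd3g at 0.04 (-0.46 to 0.54), Thy1 at 0.19 (-0.08 to 0.47) and Ptcra at 0.13 (-0.12 to 0.39). Among these only the Thy1 groups did not overlap, with Compound E higher, against 34.8% of all genes without overlap in this comparison. For Gata3, Il2ra, Cd3g and Ptcra both group means were at background, so a difference below that level would not be seen.

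On the number of members above background, 4 of the 9 genes had a group mean above 3.64 on OP9-GFP (Bcl11b, Lef1, Cd7 and Cd28), 8 on OP9-DL1 and 5 with Compound E, where Thy1 joined the 4 with a mean of 3.66. These counts depend on the level chosen: 3.64 came from Compound E replicate 2, and the highest controls on the OP9-GFP arrays were 3.17, 3.29 and 3.30. Gata3 was above 3.64 on 5 arrays but above its own array's controls on 7, and Thy1 on 4 and 8. Bcl11b and Thy1 cleared the level narrowly in these groups, with Bcl11b at 3.71 on OP9-GFP and 3.66 with Compound E. Exact repeats also occurred among the dim readings: on 7 of the 15 probe sets some arrays had identical values, among them Gata3 and the Bcl11b probe set used for the gene, which read alike on OP9-GFP replicate 1 and Compound E replicate 1.

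**Figure D3:**
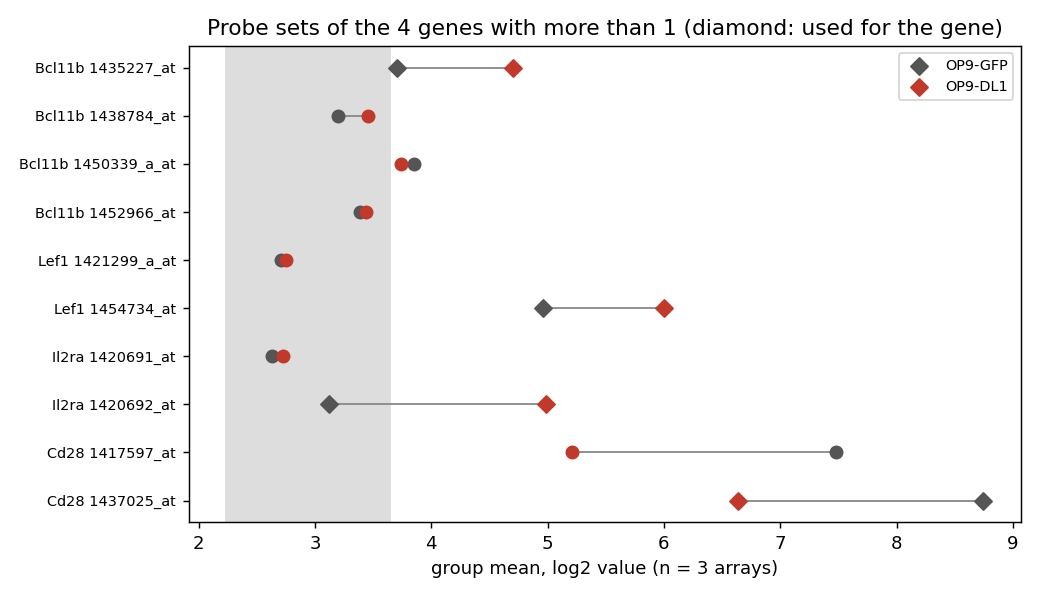
Group means (log2, n = 3 arrays) on OP9-GFP and OP9-DL1 for every probe set of the 4 genes measured by more than 1, with the probe set used for the gene as a diamond and the range of the bacterial controls in grey. The 2 Cd28 probe sets moved alike, while for Bcl11b, Lef1 and Il2ra the difference was seen on 1 probe set and the others lay within or just above the grey band.

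The genes with the profile nearest to each called member, by Euclidean distance between values centred on the gene's mean over the 9 arrays, are given as a description, since arrays share their groups and many genes follow the same pattern. Arap3 was nearest to Gata3 (distance 0.385, Pearson r = 0.988 over 9 arrays), followed by Tagln, and Gata3 itself was nearest to Il2ra (0.485, r = 0.988), followed by Socs2. Tek was nearest to Cd7 (0.482, r = 0.996), followed by Klk8, and Epdr1 to Thy1 (0.268, r = 0.988), followed by Smoc1. Kif5c (0.468, r = 0.993) and Klrb1f were nearest to Cd28. Cd6 (0.459, r = 0.958) and Nrbp2 were nearest to Bcl11b, Me1 (0.448, r = 0.965) and Lrrc4c to Lef1, and Ankrd29 (0.615, r = 0.969) and Dkkl1 to Cd3g. How closely a profile was matched varied: 746 other genes correlated with Cd7 above 0.95 over the 9 arrays, 394 with Il2ra, 20 with Bcl11b and 3 with Lef1.

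Around the members, other genes of the T cell programme moved in both directions, as did all genes. Over all genes 15.9% were higher and 16.7% lower on OP9-DL1, and 25.1% were higher and 21.6% lower with Compound E. Of 16 measured genes of the T cell receptor complex and its signalling, 7 were higher and 3 lower on OP9-DL1, and 4 were higher and 6 lower when Compound E was added. Their median differences were 0.12 and 0.05, and in each comparison Cd3e and Themis were called with both group means at background. Lat, the adaptor that links the receptor to its downstream enzymes, rose by 2.33 ± 0.09 (SE, adjusted p = 4.65e-12 by limma), from a mean of 6.90 to 9.23, and fell by 2.87 ± 0.09 with Compound E. Cd27, a co-stimulatory receptor, rose by 1.52 ± 0.08 and fell by 2.23 ± 0.08, and the kinase gene Fyn rose by 1.21 ± 0.07 and fell by 1.58 ± 0.07. Cd2, an adhesion receptor, moved like Cd28: it fell by 1.94 ± 0.16 (SE, adjusted p = 3.83e-08 by limma), from 5.81 to 3.87, and rose by 2.11 ± 0.16 with Compound E.

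The other CD3 chains and the co-receptors are named beside Cd3g for what they are, outside the rule for naming genes and with their values seen. Cd3d, Cd3e, Cd4, Cd8a and Cd8b1 averaged at background on both OP9-GFP and OP9-DL1. Cd3e was called all the same, at 0.45 ± 0.11 (SE, adjusted p = 0.00468 by limma) between means of 2.56 and 3.01. Cd247, the zeta chain, averaged 5.69, 5.58 and 5.52 in the 3 groups and was not called in any comparison. Cd3g was thus the CD3 chain whose OP9-DL1 mean stood above background while its OP9-GFP mean did not.

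**Figure D4:**
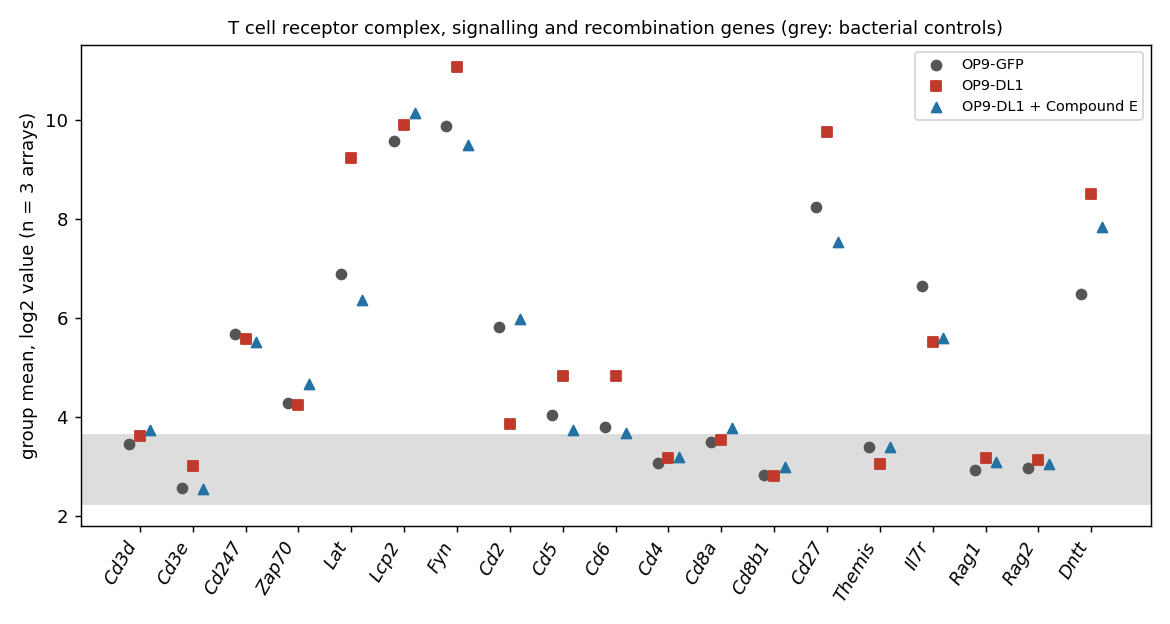
Group means (log2, n = 3 arrays) of the genes of the T cell receptor complex, its signalling and recombination in the 3 groups, with the bacterial controls in grey. Lat, Fyn, Cd27 and Dntt rose on OP9-DL1, Cd2 fell, and Rag1, Rag2, Cd3e, Cd4 and Cd8b1 stayed in the grey band.

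Of the 3 recombination genes, Rag1 and Rag2, whose products cut the receptor loci, were at background in every group, with means from 2.92 to 3.18. Dntt, which adds untemplated bases at the joints, rose by 2.02 ± 0.09 (SE, adjusted p = 3.00e-11 by limma), from 6.49 to 8.51. It fell by 0.68 ± 0.09 with Compound E, and stayed 1.34 ± 0.09 above OP9-GFP.

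Of 8 Notch readouts, 6 rose and 1 fell on OP9-DL1, with a median of 1.84, where 32.6% of all genes were called. With Compound E 6 fell and 1 rose, with a median of -1.97, where 46.7% of all genes were called. Notch3 rose by 2.71 ± 0.12 (SE), Nrarp, a feedback inhibitor of the pathway, by 2.69 ± 0.12, and the repressor genes Hey1 and Hes1 by 2.43 ± 0.18 and 2.12 ± 0.17. With Compound E, Nrarp fell by 4.27 ± 0.12 and ended 1.58 ± 0.12 below OP9-GFP. Myc rose by 1.05 ± 0.10 on OP9-DL1, fell by 1.86 ± 0.10 with Compound E and ended 0.81 ± 0.10 below OP9-GFP. Cd7 ended below OP9-GFP too, but so did many other genes. In that comparison 2 of these 8 readouts were lower and 0 higher. Among the 12 factors of early or other lineages given below, 9 were lower and 2 higher, where 10.6% and 12.1% of all genes were. Hes1 ended 0.04 ± 0.17 from OP9-GFP and Notch3 at -0.08 ± 0.12, neither of which was called.

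Of 14 other regulators of the T lineage, 7 rose and 3 fell on OP9-DL1 (median 0.24), where 32.6% of all genes were called. With Compound E 4 rose and 8 fell (median -0.33), where 46.7% of all genes were called. Tox, an HMG-box factor, rose by 3.08 ± 0.15 (SE), from 4.11 to 7.19, and fell by 1.64 ± 0.15. Ets1 rose by 1.94 ± 0.08 and fell by 2.44 ± 0.08, and Runx3 rose by 0.93 ± 0.09 and fell by 1.02 ± 0.09. Id3 and Id2, inhibitors of E-protein factors, went the other way: Id3 fell by 1.39 ± 0.06 on OP9-DL1 and rose by 1.59 ± 0.06 with Compound E, and Id2 fell by 0.81 ± 0.08 and rose by 0.91 ± 0.08.

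Of 12 factors of early or other lineages that T cell commitment turns down, 7 rose and 4 fell on OP9-DL1 (median 0.40). With Compound E 3 rose and 8 fell (median -0.74), and over all genes 32.6% and 46.7% were called in these comparisons. Gfi1b, a factor of red cells and platelets, rose by 1.84 ± 0.10 (SE) and fell by 2.76 ± 0.10, and Tal1, a stem and red cell factor, rose by 1.32 ± 0.07 and fell by 1.99 ± 0.07. Kit rose by 1.28 ± 0.09 and fell by 2.08 ± 0.09. Spi1, which encodes the myeloid factor PU.1, fell by 0.92 ± 0.06 and rose by 1.38 ± 0.06, and Flt3, a receptor of lymphoid and myeloid progenitors, fell by 1.51 ± 0.10 and rose by 1.05 ± 0.10.

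Markers of other cells, here and in the next paragraph, are read beside the shares over all genes. These were 15.9% higher and 16.7% lower on OP9-DL1, and 25.1% higher and 21.6% lower with Compound E. Of 11 mast cell markers, 7 were higher and 1 lower on OP9-DL1, and 8 were lower and 0 higher with Compound E, with summed levels of 12.21 to 12.28 on OP9-GFP, 13.20 to 13.22 on OP9-DL1 and 11.21 to 11.35 with Compound E (log2 of the summed values, range over 3 arrays). Mcpt1 rose by 5.13 ± 0.12 (SE) and Mcpt4 by 2.96 ± 0.13, both from background, and they fell by 5.08 ± 0.12 and 2.99 ± 0.13. These were the largest rises among the 11. Fcer1a rose by only 0.40 ± 0.09, and Mcpt8 (0.09) and Cma1 (-0.09) were not called on OP9-DL1. Tpsb2 was lower there (-0.38 ± 0.13, adjusted p = 0.0366 by limma), and neither Tpsb2 nor Cma1 was called with Compound E. Tpsab1 was at background in all 3 groups. Of 13 natural killer and innate lymphoid markers, 5 were higher and 2 lower on OP9-DL1, and 5 were lower and 0 higher with Compound E, with summed levels of 10.74 to 10.79, 12.00 to 12.08 and 10.08 to 10.24. Gzma rose by 3.31 ± 0.13 (SE), from background, and fell by 3.21 ± 0.13. Nkg7 rose by 1.79 ± 0.07, from 9.93 to 11.72, and fell by 2.42 ± 0.07. It made up most of the summed level of this list on OP9-DL1, so that sum largely follows 1 gene. Icos rose by 1.53 ± 0.20 and fell by 1.94 ± 0.20, and Zbtb16 rose by 0.92 ± 0.11 and fell by 1.73 ± 0.11. Il17rb was the fifth to rise, Klrd1 and Klrk1 fell on OP9-DL1, and Ncr1, Il2rb, Eomes, Tbx21 and Klrg1 were at background in every group. With Compound E Il17rb was not called (-0.14), and Klrd1 fell further, by 1.46 ± 0.18.

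Of 13 stromal feeder markers, 11 were higher and 0 lower on OP9-DL1, and 11 were lower with Compound E, with summed levels of 13.93 to 13.94, 14.58 to 14.59 and 13.97 to 13.99. These were the directions of Thy1 and of the other members that rose. Dcn was at background in every group. Of 10 monocyte and macrophage markers, 9 were lower on OP9-DL1 and 8 were higher with Compound E, the direction of Cd28, with summed levels of 14.31 to 14.33, 12.72 to 12.82 and 14.54 to 14.57, and C1qa was at background throughout. Dendritic cell markers had calls in both directions, 3 higher and 4 lower of 10 on OP9-DL1, then 3 and 3 under Compound E. So did B cell markers, with 2 and 2 of 9, then 4 and 2. Cd79a, Pax5, Ms4a1 and Blnk were at background in every group. Blnk and Cd209a were called lower on OP9-DL1, and Pax5 and Blnk higher with Compound E, each with both group means at background. Ccr7 rose by 4.40 ± 0.14 (SE), Itgax by 4.03 ± 0.12 and Cd22 by 3.60 ± 0.14, more than any of the 9 genes. With Compound E these were lower, with means of 3.27, 5.05 and 4.17 against 7.52, 8.86 and 7.75 on OP9-DL1. Irf8 went the other way, at -1.52 ± 0.06 on OP9-DL1 and 1.24 ± 0.06 with Compound E. The part of these other cells in the levels of the 9 genes was not tested.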

How the data were processed

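RNA of 9 samples, 3 in each of 3 groups taken with their replicate numbers from the sample titles, was measured on single-colour arrays. The authors deposited log2 values per probe set. MAS5 and GCRMA 2.4.1 are named in the submitters' processing notes, with no role or order, so the step behind the values was not given in the sources used. No column lacked a sample. The platform annotation named the probe sets (34945 with 1 symbol, 932 with several and 9160 with none listed here, 64 controls), with 34741 symbols updated through Entrez IDs and RefSeq.

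For each of 18193 genes the probe set with the highest mean over the 9 arrays was used. Comparisons used limma 3.58.1 in R 4.3.3 (lmFit, then eBayes with a trend on intensity) over the 9 arrays together, without covariates, renormalization or a filter, adjusted by Benjamini-Hochberg at 0.05, and a second fit took all 45037 probe sets other than controls. The fit was tested on simulated data. An array has no depth, and 3 arrays per group limit the precision. GCRMA pulls dim values together, so if it was used the folds of dim genes are affected.

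The 10 genes and the other lists were chosen with earlier results of these data known, and background was set at the highest value of the bacterial controls. Named were the members, up to 4 called genes of each T cell list and comparison by smallest p with a group mean above background, and the 2 genes nearest to each called member. Cell type markers were named where they were at background. Others were named after their values were seen, as markers that moved with the members or did not. Alternatives covered scaling, filters, the trend, the arrays fitted, replicate numbers as a block, the probe set rule, a 2-fold threshold and leaving out each array. Same-numbered arrays did not deviate together (r of deviations from group means -0.11 to 0.12 over 9 pairs, -0.14 to 0.09 for other numbers), so the numbers were not taken as pairs.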

Additional observations from a re-analysis of the deposited data

How the results depend on the processing

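Under the alternatives run, every member called in the first or second comparison kept its direction; the calls lost were Lef1's and Bcl11b's with Compound E, given above, those of genes that a filter removed, and at the 2-fold threshold Bcl11b's on OP9-DL1 (a difference of 0.999) and Lef1's with Compound E. Testing only genes above the median brightness left Cd28 as the one member tested: 0 of the 7 genes higher on OP9-DL1 and 0 of the 7 lower with Compound E remained to be called, 1 of 2 members was lower than OP9-GFP with Compound E, and 7 instead of 11 genes of the other T cell lists were lower on OP9-DL1. Adding 32 to the linear values shrank differences by over 1.5 times in both comparisons, as given above (Gata3 to 0.61, Il2ra to 0.64, Thy1 to 0.46, Cd3g to 0.40, Bcl11b to 0.37 and Lef1 to 0.60 on OP9-DL1), and all 6 stayed called. Between Compound E and OP9-GFP, 0 instead of 1 member was higher under that pseudocount, median centring, the brightness filter, no intensity trend, the 6 arrays compared alone, the mean of probe sets and a 2-fold threshold, and 1 instead of 2 was lower with the brightness filter, no trend and the 2-fold threshold. Leaving out 1 array gave 0 to 1 higher and 1 to 2 lower. With the replicate number as a block, 0 members were higher there (Lef1 adjusted p = 0.0522 by limma), and Ptcra was called on OP9-DL1 (adjusted p = 0.0379 by limma), as it was after quantile normalization (0.34, adjusted p = 0.0325 by limma). Requiring 2-fold lowered the number of genes called from 5934 to 1250 on OP9-DL1, from 8500 to 1714 with Compound E and from 4135 to 247 between Compound E and OP9-GFP. Among the other T cell lists it left 17 of 28 higher and 4 of 11 lower, 5 of 12 and 19 of 29, and 2 of 7 and 2 of 18, in the same order.

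Differences near 0, none of them called, changed sign. Between Compound E and OP9-GFP, quantile normalization gave Gata3 -0.0043, Il2ra -0.024, Cd3g -0.042 and the dim Lef1 probe set -0.018, probe set averaging gave Bcl11b 0.083, and centring gave a dim Bcl11b probe set 0.046. Leaving out 1 array gave Bcl11b -0.14 to 0.099, Il2ra -0.035 to 0.23, Gata3 -0.033 to 0.23, Cd3g -0.044 to 0.13, and for dim probe sets Lef1 -0.027 to 0.072 and Bcl11b -0.089 to 0.020. For Compound E against OP9-DL1, dim probe sets of Il2ra gave -0.058 (quantile) and -0.040 to 0.052 (1 array left out), of Lef1 0.116 (centring) and -0.074 to 0.046 (1 array left out), and of Bcl11b 0.114 (centring) and -0.016 to 0.121 (1 array left out). On OP9-DL1, leaving out 1 array gave dim probe sets of Bcl11b -0.039 to 0.107 and of Lef1 -0.015 to 0.079. The cause was not tested.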
